A study of Mus musculus with 24 samples.

Results

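The 30 genes described here mark or drive early lymphoid priming, the first steps by which blood progenitors take on lymphoid expression. They were chosen as a named list (Flt3, Il7r, Ccr9, Ccr7, Notch1, Cd27, Ltb, Ly6d, Lck, Lax1, Blnk, Dntt, Rag1, Rag2, Tcf3, Tcf4, Tcf12, Id2, Id3, Ikzf1, Ikzf2, Ikzf3, Tcf7, Gata3, Hes1, Runx3, Satb1, Bcl11a, Mef2c and Foxo1) from the 55414 genes of the count files. All 30 were found and passed the filter on low counts. The study sequenced RNA from sorted bone marrow cells of Srcap mutant and wild-type (WT) C57BL6/J mice, in 24 libraries that form 12 groups of 2. Srcap is the motor subunit of a remodeler that loads H2A.Z, a variant histone, onto nucleosomes. Of these libraries, 16 are hematopoietic stem and progenitor cells (HSPCs), which the file headers call LSK. They were mutant or WT cells that were untreated, taken 12 hours after intraperitoneal doxorubicin (a chemotherapy drug that damages DNA), taken 2 weeks after a transplant, or taken 20 weeks after a competitive one. For the 20-week cells the series text names CD45.2+ donor cells. Another 4 libraries are labelled bone marrow B cells and 4 are labelled bone marrow T cells, mutant and WT, all from 2 weeks after transplantation. The headers call the mutants het in the untreated, doxorubicin and 20-week sets and Mut in the 2-week sets, and no label gives the allele, the host or the ages.

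Lymphoid priming begins in multipotent progenitors that raise the receptor tyrosine kinase Flt3 and then, as lymphoid progenitors, the IL7 receptor, the recombinase genes Rag1 and Rag2, and Dntt, whose enzyme adds bases at antigen receptor junctions. E proteins (Tcf3, Tcf4, Tcf12), Ikaros family factors and Foxo1 drive this expression, and Id proteins hold E proteins back from DNA. Notch1 signalling, with Hes1, Tcf7 and Gata3 downstream, turns such progenitors toward the T lineage, while Ly6d marks those on the B path.

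In 24 of the 30 genes a RefSeq promoter (250 bases before the start, GRCm38.p6) could be matched. The promoters below belong to 5 genes that were lower at 2 weeks after transplantation, and their capitals mark the E-box CANNTG, the letters that E proteins bind. The Flt3 window is chr5:147400490-147400739, minus strand. The Il7r window is chr15:9529877-9530126, minus strand, and that of Ccr9 is chr9:123766961-123767210, plus strand. The Dntt window is chr19:41029025-41029274, plus strand, and that of Rag1 is chr2:101649533-101649782, minus strand.
Flt3: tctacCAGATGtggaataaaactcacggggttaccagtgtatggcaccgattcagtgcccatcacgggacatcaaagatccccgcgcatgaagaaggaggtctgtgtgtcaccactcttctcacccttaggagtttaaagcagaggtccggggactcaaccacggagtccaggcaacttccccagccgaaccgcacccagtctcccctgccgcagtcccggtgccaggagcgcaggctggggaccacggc
Il7r: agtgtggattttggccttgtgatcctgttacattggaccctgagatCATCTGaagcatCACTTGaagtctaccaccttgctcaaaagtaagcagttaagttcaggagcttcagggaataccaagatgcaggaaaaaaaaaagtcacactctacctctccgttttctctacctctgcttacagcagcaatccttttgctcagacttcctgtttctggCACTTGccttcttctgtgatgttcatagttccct
Ccr9: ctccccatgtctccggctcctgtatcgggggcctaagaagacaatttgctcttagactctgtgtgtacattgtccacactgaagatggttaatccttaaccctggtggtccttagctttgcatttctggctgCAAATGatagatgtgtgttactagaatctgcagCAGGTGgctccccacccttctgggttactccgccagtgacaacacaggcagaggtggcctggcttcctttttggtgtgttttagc
Dntt: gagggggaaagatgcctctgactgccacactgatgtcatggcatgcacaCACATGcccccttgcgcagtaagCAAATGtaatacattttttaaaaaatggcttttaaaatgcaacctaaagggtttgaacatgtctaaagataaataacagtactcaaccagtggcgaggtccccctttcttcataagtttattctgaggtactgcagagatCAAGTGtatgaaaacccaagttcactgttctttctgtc
Rag1: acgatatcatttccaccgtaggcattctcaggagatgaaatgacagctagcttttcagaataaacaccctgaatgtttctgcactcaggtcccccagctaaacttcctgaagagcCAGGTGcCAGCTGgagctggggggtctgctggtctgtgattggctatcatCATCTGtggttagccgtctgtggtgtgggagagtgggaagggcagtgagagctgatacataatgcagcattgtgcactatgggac
CANNTG reads the same on both strands. It occurred at least once in 64.9% of the 37 promoters of the 24 matched genes and in 66.2% of all 32851 promoters of the same length. GGGAA, the core letters bound by Ikaros, searched on both strands, occurred in 56.8% of the 37 promoters and in 56.2% of all of them. The share of promoters with either motif was thus close to that of promoters at large. By the annotation in the files (GRCm39), Flt3 lies at chr5:147267551-147337299, Il7r at chr15:9505874-9530262, Ccr9 at chr9:123507504-123613395 and Dntt at chr19:41017714-41047964. Rag1 (chr2:101468627-101479846) and Rag2 (chr2:101455063-101462874) are neighbours on opposite strands, and reads were counted by strand.

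Libraries held 26369992 to 78432483 fragments assigned to genes, so counting error was small for nearly all of these genes. Summed over 10 stem and progenitor markers, B cells held 31.6 to 46.8 counts per 1000000 assigned fragments (CPM), against 1018 to 1429.6 CPM in 2-week HSPCs and 2185 to 2919 CPM in untreated HSPCs. Over 12 B cell markers, B cells held 8895 to 11502 CPM, against 517 to 1538 CPM in 2-week HSPCs. The libraries labelled T cells did not carry their label's markers: Cd3e reached at most 1.56 CPM, while 10 neutrophil genes summed to 137277 to 157280.0 CPM. Untreated WT replicate 1 held 23917 CPM of those neutrophil genes, and the other 3 untreated libraries held 141 to 407 CPM. Srcap itself had 13.7 and 11.8 CPM in mutant and 8.71 and 8.47 CPM in WT untreated HSPCs and 11.7 and 13.0 CPM in mutant and 14.4 and 13.7 CPM in WT 2-week HSPCs, and it passed the test in none of the genotype comparisons, with log2 changes from -0.33 to 0.54. Nothing in the labels says whether replicates are separate animals, so p-values measure the spread between these samples only.

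In untreated HSPCs the order of these genes by length-scaled level was led by Dntt. Its median over the 4 libraries was 803 CPM per kilobase of exon. Ly6d followed at 151 CPM per kilobase, Flt3 at 132, Ikzf1 at 90.9 and Cd27, a TNF receptor family member, at 79.9. At the low end stood the T lineage factor Tcf7 at 7.61 CPM per kilobase, Ikzf2 (Helios) at 6.33, the Notch target Hes1 at 6.29 and Ikzf3 (Aiolos) at 3.57. Dntt stood above Ly6d in each untreated library, while the ranges of Ly6d and Flt3 over the 4 libraries overlapped. Summed over all 30 genes, untreated mutants held 6909 and 8166 CPM and untreated WT held 6239 and 6369 CPM. At 12 hours of doxorubicin the sum was 7441 to 8975 CPM, at 2 weeks 2896 to 3950.0 CPM and at 20 weeks 3727 to 4239 CPM. Dntt was the largest part of these sums. Its mean was 2013 CPM untreated, 2769 CPM after doxorubicin, 883 CPM at 2 weeks and 999 CPM at 20 weeks.

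**Figure D1:**
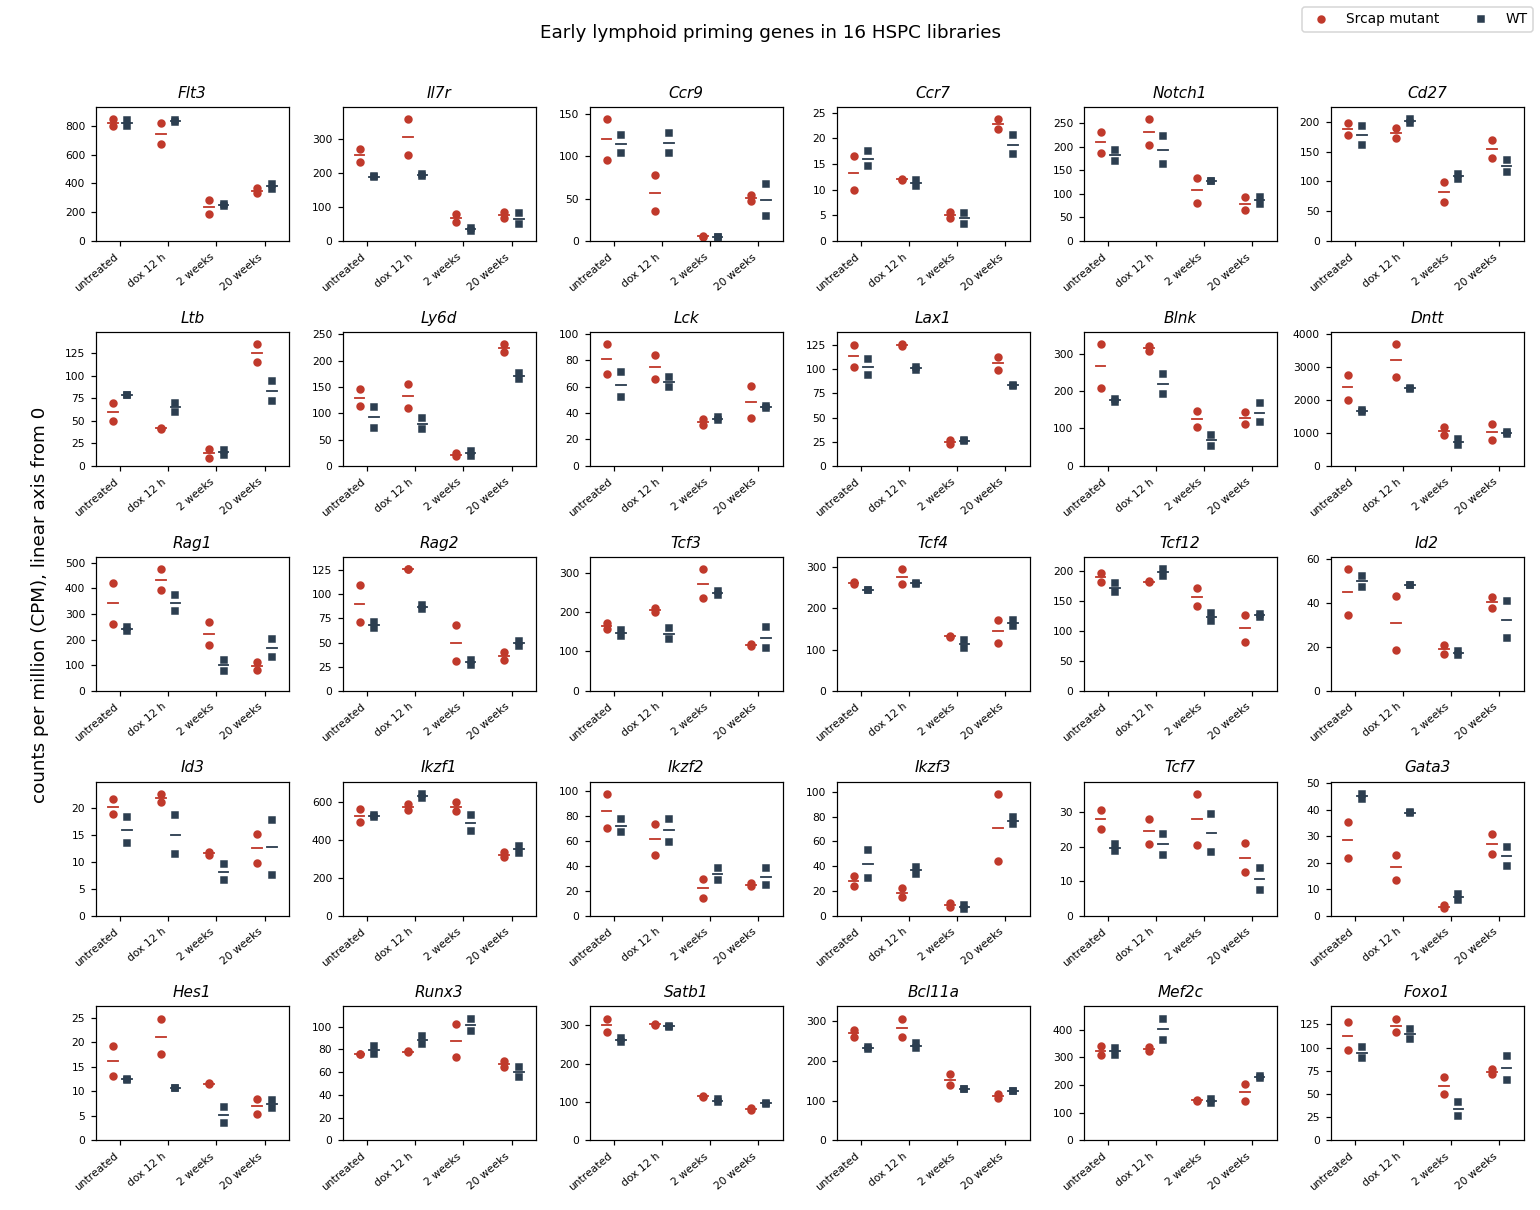
CPM of the 30 lymphoid priming genes (linear axis from 0) in the 16 HSPC libraries by condition, mutant as circles and WT as squares, with a short line at each group mean of 2 libraries. Flt3, Il7r, Ccr9, Lax1 and Ly6d fell to their lowest level at 2 weeks in both genotypes, while Tcf3 was highest there and Ikzf3, Ly6d and Ltb were highest at 20 weeks.

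At 2 weeks after transplantation, most of the program was lower than in untreated HSPCs. Of the 30 genes, 25 fell and 2 rose (edgeR quasi-likelihood test, mean of both genotypes, Benjamini-Hochberg adjusted p under 0.05 over 19522 genes). Among all genes tested 24.9% fell and 21.2% rose, 46.1% in all. The median log2 change was -1.09 for the 30 genes and -0.14 for all genes. After scaling for library composition, 22 of the 30 had all 4 libraries at 2 weeks below all 4 untreated ones, as had 22.4% of all genes.

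Every receptor and surface protein of the list fell at 2 weeks, 8 of 8. Ccr9, a chemokine receptor of thymus-seeding progenitors, had 4.52 and 6.37 CPM in mutant and 4.49 and 5.20 CPM in WT 2-week HSPCs, against 144 and 96.2 CPM in mutant and 104 and 126 CPM in WT untreated HSPCs. All 4 libraries at 2 weeks lay far below all untreated ones (log2 change -4.43 ± 0.38 SE, adjusted p = 1.25e-05). Il7r, the IL7 receptor alpha chain, had 80.3 and 55.1 CPM in mutant and 30.6 and 39.3 CPM in WT 2-week HSPCs, against 234 and 271 CPM in mutant and 188 and 191 CPM in WT untreated HSPCs. These groups did not overlap either (log2 change -2.08 ± 0.19 SE, adjusted p = 8.45e-07), and the 2 WT libraries at 2 weeks were the lowest. Flt3 had 189 and 283 CPM in mutant and 244 and 259 CPM in WT 2-week HSPCs, against 846 and 797 CPM in mutant and 798 and 838 CPM in WT untreated HSPCs. It fell to a similar level in both genotypes (log2 change -1.67 ± 0.12 SE, adjusted p = 8e-09). Ly6d had 19.4 to 27.9 CPM at 2 weeks, against 72.1 to 147 CPM untreated (log2 change -2.19 ± 0.18 SE, adjusted p = 9.01e-08). Ltb, the membrane-bound lymphotoxin beta, had 8.66 to 19.0 CPM at 2 weeks, against 50.2 to 78.7 CPM untreated (log2 change -2.16 ± 0.22 SE, adjusted p = 4.92e-06). The lymph node homing receptor Ccr7 stood at 3.38 to 5.73 CPM at 2 weeks and 9.99 to 17.5 CPM untreated, with a log2 change of -1.51 ± 0.20 SE. Cd27 (-0.87 ± 0.12 SE) and Notch1 (-0.66 ± 0.17 SE) fell least among the receptors on the log2 scale.

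The signalling adaptors and the recombination genes fell too, 3 of 3 in each group. Lax1, an adaptor that dampens antigen receptor signalling, had 26.4 and 22.1 CPM in mutant and 26.3 and 25.4 CPM in WT 2-week HSPCs, against 103 and 125 CPM in mutant and 93.9 and 111 CPM in WT untreated HSPCs. Its 2-week libraries lay within a narrow band below all untreated ones (log2 change -2.02 ± 0.11 SE, adjusted p = 2.94e-10). Blnk, the adaptor of pre-B cell receptor signalling, had a log2 change of -1.13 ± 0.21 SE, and Lck, the Src family kinase of T cells, one of -0.95 ± 0.15 SE. Dntt had 1162 and 924 CPM in mutant and 634 and 814 CPM in WT 2-week HSPCs, against 1996 and 2750.2 CPM in mutant and 1686 and 1619 CPM in WT untreated HSPCs. No 2-week library reached the lowest untreated one, and the WT libraries were the lowest (log2 change -1.10 ± 0.16 SE, adjusted p = 2.46e-05). Rag1 had 269 and 177 CPM in mutant and 78.3 and 121 CPM in WT 2-week HSPCs, against 263 and 422 CPM in mutant and 249 and 234 CPM in WT untreated HSPCs. Mutant replicate 1 at 2 weeks lay above 3 of the 4 untreated libraries, so the groups overlapped (log2 change -0.85 ± 0.26 SE, adjusted p = 0.0212). Rag2, its recombinase partner, fell by 0.95 on the log2 scale (SE 0.21).

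Among the transcription factors of the list, the E proteins differed in direction at 2 weeks, while those of the Ikaros family that passed fell. Tcf3, which encodes the main E protein of lymphoid cells, rose, with 235 and 310.1 CPM in mutant and 244 and 253 CPM in WT 2-week HSPCs, against 158 and 171 CPM in mutant and 138 and 155 CPM in WT untreated HSPCs. All 4 libraries at 2 weeks were above all untreated ones (log2 change 0.83 ± 0.14 SE, adjusted p = 7.11e-05). Its relative Tcf4 fell (-0.96 ± 0.12 SE), Tcf12 had -0.29 ± 0.13 SE and did not pass (adjusted p = 0.0857). The E protein inhibitors Id2 (-1.31 ± 0.27 SE) and Id3 (-0.80 ± 0.26 SE) also fell. Of the Ikaros family, Ikzf3 (-2.04 ± 0.32 SE) and Ikzf2 (-1.46 ± 0.22 SE) fell, while Ikzf1 had 597 and 553 CPM in mutant and 443 and 531 CPM in WT 2-week HSPCs, against 495 and 559.7 CPM in mutant and 530.1 and 519.9 CPM in WT untreated HSPCs. Ikzf1, which encodes Ikaros, overlapped between the conditions (log2 change 0.10 ± 0.11 SE, adjusted p = 0.504). Gata3, a T lineage and innate lymphoid factor, had 2.73 and 3.94 CPM in mutant and 5.89 and 7.97 CPM in WT 2-week HSPCs, against 35.2 and 21.8 CPM in mutant and 46.0 and 44.1 CPM in WT untreated HSPCs. No 2-week library reached the lowest untreated one (log2 change -2.82 ± 0.22 SE, adjusted p = 2.3e-08). Runx3 rose slightly (0.37 ± 0.12 SE), Hes1 fell (-0.77 ± 0.23 SE) and Tcf7 had 0.23 ± 0.26 SE without passing. The chromatin organiser Satb1 (-1.27 ± 0.10 SE), Foxo1 (-1.12 ± 0.18 SE), Mef2c (-1.08 ± 0.13 SE) and Bcl11a (-0.75 ± 0.10 SE), all factors needed for lymphoid development, fell.

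Other cell markers moved with this change. Summed over 6 myeloid progenitor genes, 2-week HSPCs had 3201 to 7379 CPM, against 191 to 325 CPM untreated, and all 6 rose. All 9 erythroid genes rose, with 1842 to 2615 CPM in sum at 2 weeks, against 354 to 654 CPM untreated. The 12 B cell markers summed to 517 to 1538 CPM at 2 weeks, against 1466 to 2254 CPM untreated, and 8 of 12 fell. All 7 plasma cell markers fell, with 562 to 1173 CPM in sum at 2 weeks, against 3473 to 6867 CPM untreated. The T cell markers summed to 44.3 to 61.0 CPM at 2 weeks, against 90.8 to 118 CPM untreated, and 7 of the 11 tested fell. Of 10 stem and progenitor markers 8 fell and 2 rose. The part of these cells in the lymphoid change, that of Ikzf3, Ly6d, Ltb, Gata3 and Lck included, was not tested, and in bulk RNA fewer cells of a type and less RNA per cell cannot be told apart. Xist, an RNA of the inactive X chromosome, stood at 545 to 1339 CPM in 2-week HSPCs and at most 0.484 CPM in all other HSPCs, and the headers place untreated and doxorubicin, 2-week and 20-week files in separate directories. For the 2-week HSPCs, time after transplantation, sex and file set cannot be told apart. Xist stood at 0.102 to 0.484 CPM in 20-week and 0 to 0.421 CPM in untreated HSPCs. Between those 2 sets, transplantation and file set cannot be told apart.

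**Figure D2:**
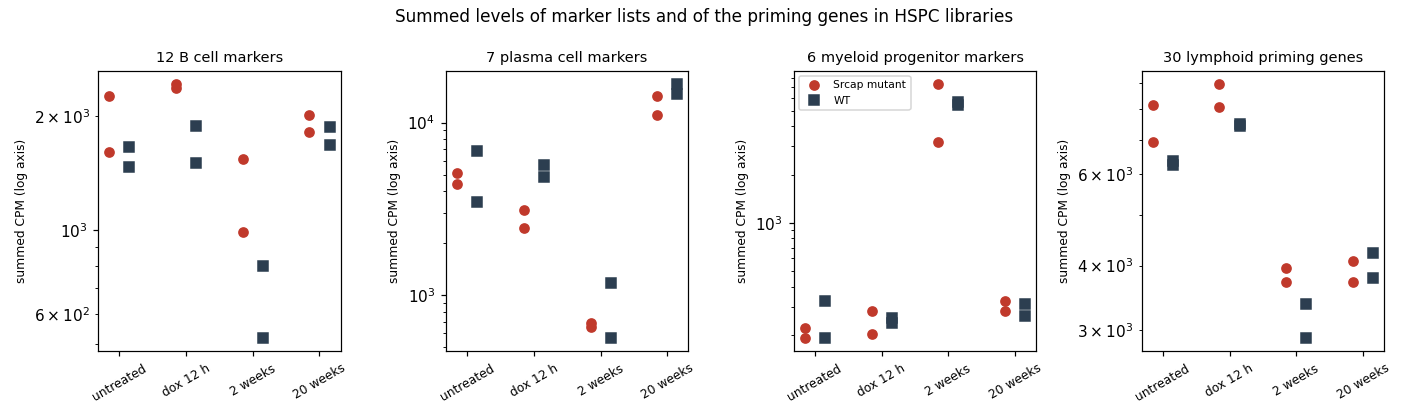
Summed CPM (log axis) of 3 marker lists and of the 30 priming genes in each HSPC library by condition, mutant as circles and WT as squares. Myeloid progenitor genes were highest at 2 weeks, plasma cell genes were highest at 20 weeks, and the sum of the priming genes was below the untreated level at both times.

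At 20 weeks after competitive transplantation the genes moved in both directions against untreated HSPCs. Of the 30, 4 rose and 9 fell, while 13.1% of all genes rose and 10.6% fell (23.6% in all). The median log2 change was -0.30 for the 30 genes, against 0.02 for all genes. Of all counts, 16.9 to 26.7% fell on immunoglobulin genes and Jchain at 20 weeks, against 3.66 to 6.22% in untreated HSPCs, and log2 changes follow scaling for composition, which CPM do not. Ikzf3, Ly6d, Ltb and Ccr7 rose. Ikzf3 had 43.9 and 98.7 CPM in mutant and 73.9 and 80.1 CPM in WT 20-week HSPCs, against 31.6 and 24.3 CPM in mutant and 30.8 and 52.7 CPM in WT untreated HSPCs (log2 change 1.49 ± 0.31 SE, adjusted p = 0.00605). The mutant pair differed 2.25-fold, and its lower library was below an untreated WT library in CPM. Ly6d had 232 and 216 CPM in mutant and 166 and 178 CPM in WT 20-week HSPCs, against 113 and 147 CPM in mutant and 72.1 and 112 CPM in WT untreated HSPCs. All 4 libraries at 20 weeks were above all untreated ones (log2 change 1.21 ± 0.17 SE, adjusted p = 0.000173). Ltb had 72.0 to 135 CPM at 20 weeks, against 50.2 to 78.7 CPM untreated (log2 change 0.94 ± 0.21 SE, adjusted p = 0.00713), and Ccr7 had 16.9 to 23.8 CPM at 20 weeks, against 9.99 to 17.5 CPM untreated (log2 change 0.86 ± 0.20 SE, adjusted p = 0.0039). For both, the lowest 20-week library was below the highest untreated one in CPM.

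The 9 genes that fell at 20 weeks included the receptors Flt3, Il7r and Notch1 and the recombination genes Dntt and Rag1. Satb1 had 78.7 and 84.8 CPM in mutant and 96.7 and 95.7 CPM in WT 20-week HSPCs, against 283 and 317 CPM in mutant and 256 and 266 CPM in WT untreated HSPCs. Its 20-week libraries lay far below all untreated ones (log2 change -1.30 ± 0.10 SE, adjusted p = 2.04e-07). Il7r had 85.4 and 67.9 CPM in mutant and 50.9 and 81.3 CPM in WT 20-week HSPCs, against 234 and 271 CPM in mutant and 188 and 191 CPM in WT untreated HSPCs (log2 change -1.25 ± 0.19 SE, adjusted p = 0.000384), again with no overlap. Flt3 had 333 to 396 CPM at 20 weeks, against 797 to 846 CPM untreated (log2 change -0.81 ± 0.12 SE, adjusted p = 0.000159). Dntt had 767 to 1255 CPM at 20 weeks, against 1619 to 2750.2 CPM untreated (log2 change -0.63 ± 0.16 SE, adjusted p = 0.0083). Ikzf2 (-1.13 ± 0.22 SE), Notch1 (-0.87 ± 0.17 SE), Bcl11a (-0.72 ± 0.10 SE) and Tcf4 (-0.35 ± 0.12 SE) fell as well. Rag1 had 79.5 to 204 CPM at 20 weeks, against 234 to 422 CPM untreated, and passed narrowly (log2 change -0.80 ± 0.26 SE, adjusted p = 0.0497); it passed in 2 of 8 fits that each left out 1 library. The Rag2 change was -0.54 ± 0.21 SE (adjusted p = 0.0837). Gata3 overlapped its untreated level, at 18.8 to 30.7 CPM at 20 weeks and 21.8 to 46.0 CPM untreated (log2 change -0.18 ± 0.20 SE), and Ccr9 had -0.86 ± 0.33 SE (adjusted p = 0.0951). Both comparisons with untreated cells share those 4 control libraries, so the log2 changes stand side by side only as values: Ly6d had -2.19 at 2 weeks and 1.21 at 20 weeks, Ikzf3 -2.04 and 1.49, and Satb1 -1.27 and -1.30.

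Mature B lineage markers moved at 20 weeks beside Ikzf3, Ly6d, Ltb and Ccr7. All 7 plasma cell markers rose, to 11122 to 16833 CPM in sum at 20 weeks, against 3473 to 6867 CPM untreated. Among the 12 B cell markers 5 rose and 1 fell, with a summed level of 1671 to 2013 CPM at 20 weeks, against 1466 to 2254 CPM untreated. Ms4a1, which encodes CD20, changed by 3.19 ± 0.35 SE and Cd22 by 3.10 ± 0.52 SE on the log2 scale. Their part in the rise of the 4 genes was not tested. Without immunoglobulin genes and Jchain, 16 of the 30 genes passed (24% of all genes), including all 13. Without untreated WT replicate 1, the library with neutrophil RNA, 11 of the 13 passed (15.2% of all genes passed).

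**Figure D3:**
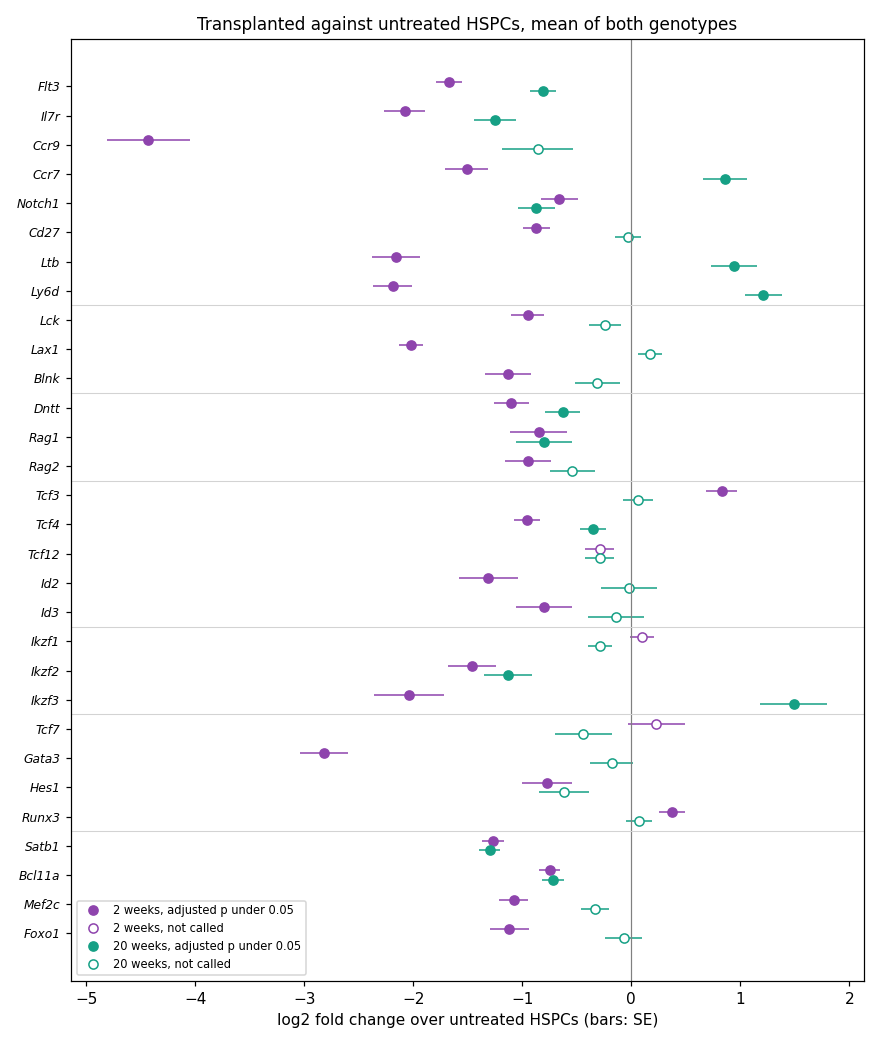
Log2 fold change (± SE) over untreated HSPCs at 2 weeks and at 20 weeks for each gene, mean of both genotypes, filled where the adjusted p was under 0.05 and grouped by role from receptors at the top to other transcription and chromatin factors at the bottom. Ccr9 had the lowest value at 2 weeks (-4.43), and Ikzf3, Ly6d, Ltb and Ccr7 lay left of 0 at 2 weeks and right of it at 20 weeks.

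At 12 hours after doxorubicin few changes in these genes were detectable, and these only without a filter on low counts. None of the 30 passed against untreated HSPCs (edgeR; 0.0154% of all genes passed), DESeq2 called none (0.629% of all genes), and 1 had an unadjusted p under 0.05 (5.96% of all genes). That gene was Dntt, with 3686 and 2700.3 CPM in mutant and 2369 and 2323 CPM in WT doxorubicin HSPCs, against 1996 and 2750.2 CPM in mutant and 1686 and 1619 CPM in WT untreated HSPCs. Mutant replicate 1 after doxorubicin was the highest of the 8 libraries, and the groups overlapped (log2 change 0.49 ± 0.16 SE, adjusted p = 0.673). Ccr9 had 35.5 and 77.6 CPM in mutant and 127 and 104 CPM in WT doxorubicin HSPCs, against 144 and 96.2 CPM in mutant and 104 and 126 CPM in WT untreated HSPCs, with the 2 treated mutant libraries lowest (log2 change -0.52 ± 0.33 SE, adjusted p = 0.9). Flt3 (-0.03 ± 0.12 SE), Il7r (0.18 ± 0.19 SE) and Rag1 (0.45 ± 0.26 SE) did not pass either. With no count filter edgeR called 3 of the 30, beside 1.43% of all genes. After Dntt the smallest p with the filter were those of Gata3 (-0.41 ± 0.20 SE), Rag2 (0.44 ± 0.21 SE), Ikzf1 (0.21 ± 0.11 SE) and Ltb (-0.38 ± 0.21 SE). The median log2 change of the 30 genes was 0.09, against 0.00 for all genes. 

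Sorted B cells at 2 weeks differed from HSPCs in most of the priming genes, in both directions. Against HSPCs of the same time, 17 of the 30 genes were higher and 8 lower in B cells, while 28.3% of all 19018 genes tested were higher and 25.5% lower, 53.9% in all. Each of these 25 genes, taken because they passed, also had non-overlapping libraries on the composition-scaled level. Of all genes, passed or not, 26% did not overlap on the higher and 23.8% on the lower side. The 25 and these shares thus rest on unlike sets of genes. Ikzf3 had 728 and 789.8 CPM in mutant and 561 and 573 CPM in WT B cells, against 10.3 and 7.17 CPM in mutant and 5.52 and 8.35 CPM in WT 2-week HSPCs. It was the largest difference of the list (log2 change 6.51 ± 0.23 SE, adjusted p = 2.12e-09). Ly6d had 621 and 782 CPM in mutant and 654 and 846 CPM in WT B cells, against 19.4 and 23.7 CPM in mutant and 19.6 and 27.9 CPM in WT 2-week HSPCs (log2 change 5.13 ± 0.21 SE, adjusted p = 5.09e-09). Ccr7 (4.06 ± 0.18 SE) and Ltb (2.56 ± 0.22 SE) were also higher. Il7r had 375 and 348 CPM in mutant and 339 and 313 CPM in WT B cells, against 80.3 and 55.1 CPM in mutant and 30.6 and 39.3 CPM in WT 2-week HSPCs; its B cell level was above that of untreated HSPCs too (188 to 271 CPM). The difference from 2-week HSPCs was large against its error (log2 change 2.94 ± 0.14 SE, adjusted p = 4.85e-10). Rag1 had 1160.5 and 1189 CPM in mutant and 841 and 812 CPM in WT B cells, against 269 and 177 CPM in mutant and 78.3 and 121 CPM in WT 2-week HSPCs. The mutant B cell libraries were the highest of the 24 (log2 change 2.85 ± 0.18 SE, adjusted p = 1.33e-07). Foxo1 (2.66 ± 0.16 SE), Blnk (2.33 ± 0.17 SE), Ccr9 (2.37 ± 0.24 SE) and Id3 (2.36 ± 0.21 SE) were higher by over 2 log2 units. Ccr9 had 16.5 to 30.3 CPM in B cells, which was below its level in untreated HSPCs (96.2 to 144 CPM).

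The 8 genes lower in B cells included the progenitor receptors Flt3 and Cd27, Dntt, and the T lineage factors Gata3, Tcf7 and Runx3. Flt3 had 7.04 and 10.4 CPM in mutant and 16.2 and 19.5 CPM in WT B cells, against 189 and 283 CPM in mutant and 244 and 259 CPM in WT 2-week HSPCs, with no overlap (log2 change -4.16 ± 0.18 SE, adjusted p = 9.36e-10). Cd27 had 2.04 and 2.37 CPM in mutant and 4.36 and 7.53 CPM in WT B cells, against 64.7 and 98.6 CPM in mutant and 113 and 105 CPM in WT 2-week HSPCs (log2 change -4.57 ± 0.27 SE, adjusted p = 5.87e-08). Dntt had 41.3 and 33.2 CPM in mutant and 105 and 66.3 CPM in WT B cells, against 1162 and 924 CPM in mutant and 634 and 814 CPM in WT 2-week HSPCs. Every B cell library lay below every HSPC library (log2 change -3.82 ± 0.37 SE, adjusted p = 6.81e-05). Ikzf2 (-3.44 ± 0.31 SE), Gata3 (-2.81 ± 0.74 SE), Runx3 (-2.04 ± 0.13 SE), Tcf7 (-1.94 ± 0.36 SE) and Satb1 (-0.35 ± 0.09 SE) were lower as well. Gata3 stood at 0.143 to 1.09 CPM in B cells. All 3 E proteins were higher in B cells than in 2-week HSPCs, Tcf3 by 1.44 ± 0.14 SE, Tcf12 by 1.11 ± 0.10 SE and Tcf4 by 0.64 ± 0.09 SE. Tcf4 had 164 to 190 CPM in B cells, which was below its level in untreated HSPCs (244 to 264 CPM). Lax1, Notch1, Bcl11a, Id2 and Mef2c had log2 changes between -0.12 and 0.17 and did not pass. Neutrophil markers summed to 3606 to 12895 CPM and erythroid markers to 6591 to 17437 CPM in the B cell libraries, against 1013 to 3577 and 1842 to 2615 CPM in 2-week HSPCs; their part in the differences was not tested.

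**Figure D4:**
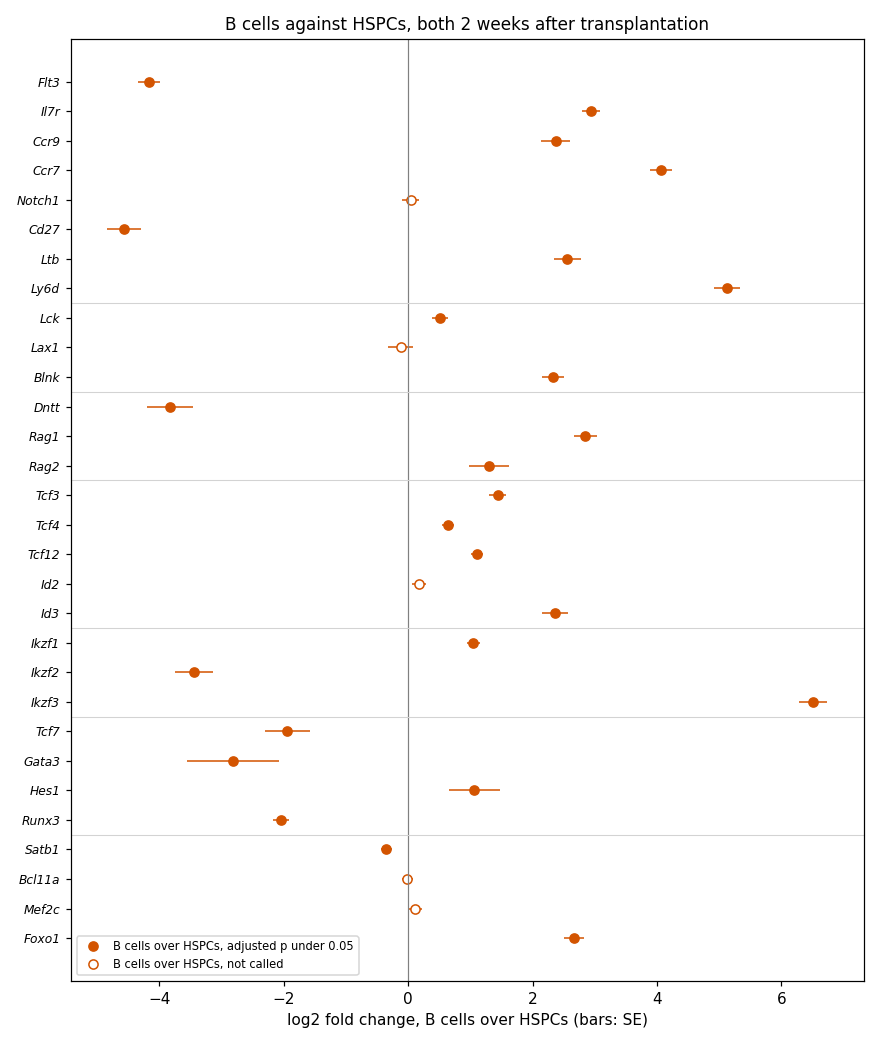
Log2 fold change (± SE) of B cells over HSPCs, both 2 weeks after transplantation and as the mean of both genotypes, for each of the 30 genes, filled where the adjusted p was under 0.05. Ikzf3 (6.51), Ly6d (5.13) and Ccr7 (4.06) lie far right, and Cd27 (-4.57), Flt3 (-4.16) and Dntt (-3.82) far left.

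The libraries labelled T cells held less of the program in sum than HSPCs of the same time. Summed over the 30 genes they had 1192 to 1418 CPM, against 2896 to 3950.0 CPM in 2-week HSPCs, and Ikzf1 alone made up 414 to 419.9 CPM of it. Notch1 stood at 182 to 241 CPM, Satb1 at 83.5 to 103 CPM and Id2 at 60.6 to 71.6 CPM. The list's T cell genes were low: Lck had 2.81 to 4.66 CPM, Tcf7 0.157 to 1.73 CPM and Gata3 0 to 0.147 CPM. In B cells Lck had 40.5 to 49.5 CPM.

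Between mutant and WT, no gene of the list passed in any of the 4 HSPC conditions or in their mean (edgeR). Of all genes, 0% passed in untreated HSPCs, 0.0154% after doxorubicin, 0.138% at 2 weeks, 0.00512% at 20 weeks and 0.133% in the mean. At an unadjusted p under 0.05 there were 2 genes in untreated HSPCs, 8 after doxorubicin, 9 at 2 weeks, 2 at 20 weeks and 6 in the mean. The shares of all genes were 4.82% untreated, 9.79% after doxorubicin, 8.76% at 2 weeks, 3.8% at 20 weeks and 9.88% in the mean. DESeq2 called Gata3 after doxorubicin (2.15% of all genes), Hes1, Il7r, Foxo1 and Blnk at 2 weeks (1.55%), and Gata3, Il7r and Hes1 in the mean (2.06%). It called none in untreated HSPCs (0.922%) or at 20 weeks (0.121%). With no count filter edgeR called 0 of the 30 untreated, 6 after doxorubicin, 7 at 2 weeks, 1 at 20 weeks and 7 in the mean, beside 1.58%, 1.61%, 1.35%, 0.505% and 2.09% of all genes. Single libraries mattered as well, though each such fit left 1 library in the group concerned. Without mutant replicate 2 at 2 weeks that was mutant replicate 1. Its B cell markers summed to 1538 CPM, against 517 to 985 CPM in the other 2-week HSPC libraries. At 2 weeks 4 of the 30 passed without mutant replicate 2 of that time (3.09% of all genes), and at 20 weeks 2 passed without mutant replicate 2 of that time (1.4%). In the mean, 3 passed without mutant 2-week replicate 2 (1.45%). There 1 passed without mutant untreated replicate 1 (0.136%), without WT 20-week replicate 1 (0.0842%) or without WT 20-week replicate 2 (0.107%).

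Gata3 had the smallest p of the list in the mean over conditions. It had 35.2 and 21.8 CPM in mutant and 46.0 and 44.1 CPM in WT untreated HSPCs. After doxorubicin it had 13.6 and 23.1 CPM in mutant and 39.0 and 38.6 CPM in WT doxorubicin HSPCs, and at 2 weeks 2.73 and 3.94 CPM in mutant and 5.89 and 7.97 CPM in WT 2-week HSPCs. Both mutant libraries were below both WT libraries in these 3 conditions. On scaled levels, this held for 17.1% of all genes in untreated HSPCs, 21.7% after doxorubicin and 19.6% at 2 weeks, each condition taken singly. At 20 weeks the values overlapped, with 30.7 and 23.1 CPM in mutant and 18.8 and 26.0 CPM in WT 20-week HSPCs. The mean log2 change was -0.67 ± 0.14 SE (edgeR adjusted p = 0.0967, DESeq2 adjusted p = 0.00358). After doxorubicin alone it was -1.15 ± 0.29 SE (adjusted p = 0.177 in edgeR and 0.0165 in DESeq2). Beside it the 12 T cell markers summed to 91.8 and 105 CPM in mutant and 100.5 and 100.2 CPM in WT doxorubicin HSPCs. Of the 11 tested, 5 were above and 6 below 0 in log2 change, and none passed. Among the 10 natural killer and innate lymphoid cell markers, Klrb1c passed in the mean over conditions (0.91 ± 0.17 SE, edgeR adjusted p = 0.0395). Of all genes 0.133% passed there. Only Zbtb16 (-0.34 ± 0.24 SE) and Gzma (-0.18 ± 0.32 SE) of that list were below 0. All others of the list were above 0, and none but Klrb1c passed. The part of either list in the Gata3 values was not tested.

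Il7r and Hes1 had higher values in mutant than in WT libraries in 3 of the 4 conditions. Il7r had 234 and 271 CPM in mutant and 188 and 191 CPM in WT untreated HSPCs, 253 and 359 CPM in mutant and 197 and 192 CPM in WT doxorubicin HSPCs, and 80.3 and 55.1 CPM in mutant and 30.6 and 39.3 CPM in WT 2-week HSPCs. In these 3 conditions both mutant libraries were above both WT libraries. On scaled levels, this held for 21.5% of all genes in untreated HSPCs, 24.4% after doxorubicin and 12.7% at 2 weeks, each condition taken singly. At 20 weeks it had 85.4 and 67.9 CPM in mutant and 50.9 and 81.3 CPM in WT 20-week HSPCs, which overlapped. Its mean log2 change was 0.53 ± 0.13 SE (adjusted p = 0.157 in edgeR and 0.00484 in DESeq2). Hes1, a repressor induced by Notch, had 13.1 and 19.2 CPM in mutant and 12.5 and 12.4 CPM in WT untreated HSPCs and 17.5 and 24.8 CPM in mutant and 10.6 and 10.6 CPM in WT doxorubicin HSPCs. At 2 weeks it had 11.7 and 11.5 CPM in mutant and 3.55 and 6.87 CPM in WT 2-week HSPCs and at 20 weeks 8.51 and 5.45 CPM in mutant and 6.52 and 8.27 CPM in WT 20-week HSPCs. Both mutant libraries were above both WT libraries except at 20 weeks, where the groups overlapped (mean log2 change 0.58 ± 0.16 SE, adjusted p = 0.191 in edgeR and 0.037 in DESeq2).

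In untreated HSPCs the unadjusted p was under 0.05 for Gata3 (-0.68 ± 0.29 SE) and Dntt (0.50 ± 0.23 SE), followed by Ly6d (0.47 ± 0.24 SE), Blnk (0.58 ± 0.30 SE) and Lck (0.37 ± 0.21 SE). After doxorubicin the 5 smallest p were those of Gata3, Hes1, Ly6d, Ikzf3 and Ltb. Ly6d had 155 and 109.8 CPM in mutant and 69.8 and 90.6 CPM in WT doxorubicin HSPCs, without overlap (log2 change 0.67 ± 0.24 SE, adjusted p = 0.374). Higher mutant libraries without overlap were found for 24.4% of all genes after doxorubicin, on scaled levels. Ikzf3 had 14.8 and 21.9 CPM in mutant and 33.9 and 39.2 CPM in WT doxorubicin HSPCs (log2 change -1.06 ± 0.43 SE, adjusted p = 0.467), and Ltb had 41.2 and 41.9 CPM in mutant and 60.2 and 69.6 CPM in WT doxorubicin HSPCs (log2 change -0.70 ± 0.30 SE, adjusted p = 0.483). For both genes the mutant libraries lay below the WT libraries, which held for 21.7% of all genes. Beside them the 7 plasma cell markers summed to 3105 and 2459 CPM in mutant and 5706 and 4852 CPM in WT libraries, with 6 of 7 below 0 in log2 change. The 12 B cell markers summed to 2376 and 2435 CPM in mutant and 1502 and 1878 CPM in WT doxorubicin libraries. The 10 stem and progenitor markers summed to 1992 and 2004 CPM in mutant and 2920 and 2787 CPM in WT doxorubicin libraries. The part of these 3 lists in the values of Ly6d, Ikzf3 and Ltb was not tested.

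Other genes with an unadjusted p under 0.05 in the mean over conditions were Dntt (0.36 ± 0.11 SE, adjusted p = 0.264), Blnk (0.43 ± 0.15 SE, adjusted p = 0.332) and Ly6d (0.34 ± 0.12 SE, adjusted p = 0.329). At 2 weeks Rag1 had a log2 change of 1.19 ± 0.37 SE (adjusted p = 0.37), from the values given above. Foxo1, which sustains Il7r and the recombinase genes, had 68.2 and 49.6 CPM in mutant and 26.3 and 40.9 CPM in WT 2-week HSPCs, with no overlap (log2 change 0.84 ± 0.25 SE, adjusted p = 0.289). Blnk had 146 and 104 CPM in mutant and 53.8 and 83.7 CPM in WT 2-week HSPCs, also without overlap (log2 change 0.89 ± 0.30 SE, adjusted p = 0.388). Higher mutant libraries without overlap were found for 12.7% of all genes at 2 weeks, on scaled levels. Beside Il7r, Rag1, Blnk and Foxo1, the 12 B cell markers summed to 1538 and 985 CPM in mutant and 517 and 804 CPM in WT libraries at 2 weeks, with 11 of 12 above 0 in log2 change, and their part was not tested. At 20 weeks the 2 genes were Rag1, with 79.5 and 114 CPM in mutant and 130.1 and 204 CPM in WT 20-week HSPCs (log2 change -0.83 ± 0.37 SE, adjusted p = 1), and Mef2c, with 144 and 203 CPM in mutant and 225 and 234 CPM in WT 20-week HSPCs (log2 change -0.43 ± 0.18 SE, adjusted p = 1). Both mutant libraries were above both WT libraries for Rag1 at 2 weeks and below both at 20 weeks. Of all genes, 13.2% lay lower in this way at 20 weeks, on scaled levels. The next smallest p at 20 weeks were those of Lax1 (0.32 ± 0.16 SE), Satb1 (-0.27 ± 0.14 SE) and Ltb (0.54 ± 0.30 SE). Flt3 had 368 and 333 CPM in mutant and 362 and 396 CPM in WT 20-week HSPCs and log2 changes near 0 in HSPCs: -0.02 ± 0.17 untreated, -0.22 ± 0.17 after doxorubicin, -0.07 ± 0.17 at 2 weeks and -0.15 ± 0.17 SE at 20 weeks.

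Whether the genotype difference itself depended on the condition was tested as an interaction. None of the 30 passed for doxorubicin, 2 weeks or 20 weeks against untreated HSPCs, nor did any of all genes (0%), and DESeq2 called none of the 30 (0.0256%, 0.771% and 0.119% of all genes). At an unadjusted p under 0.05 there were 0, 0 and 4 of the 30, beside 2.82%, 7.34% and 4.66% of all genes. The 4 at 20 weeks were Rag1 (-1.31 ± 0.52 SE), Satb1 (-0.44 ± 0.19 SE), Gata3 (0.89 ± 0.40 SE) and Ltb (0.95 ± 0.43 SE), followed by Rag2 (-0.85 ± 0.42 SE). At 2 weeks the smallest p were those of Cd27 (-0.45 ± 0.23 SE), Ikzf2 (-0.79 ± 0.43 SE), Hes1 (0.83 ± 0.46 SE), Foxo1 (0.62 ± 0.35 SE) and Ly6d (-0.59 ± 0.34 SE). For doxorubicin they were those of Ccr9 (-1.14 ± 0.66 SE), Mef2c (-0.33 ± 0.25 SE), Hes1 (0.58 ± 0.46 SE), Cd27 (-0.28 ± 0.23 SE) and Gata3 (-0.47 ± 0.40 SE).

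In B cells no gene of the list passed between mutant and WT (0.0684% of all genes did), and 5 had an unadjusted p under 0.05, against 8.04% of all genes. Flt3 had 7.04 and 10.4 CPM in mutant and 16.2 and 19.5 CPM in WT B cells, both mutant values below both WT values (log2 change -1.04 ± 0.23 SE, adjusted p = 0.17). On scaled levels, 20% of all genes were lower in this way in B cells. Cd27 had 2.04 and 2.37 CPM in mutant and 4.36 and 7.53 CPM in WT B cells (log2 change -1.43 ± 0.36 SE, adjusted p = 0.262), and Dntt had 41.3 and 33.2 CPM in mutant and 105 and 66.3 CPM in WT B cells (log2 change -1.20 ± 0.47 SE, adjusted p = 0.6). DESeq2 called Flt3 (adjusted p = 0.0123) and Cd27 (adjusted p = 0.0135), and 1.38% of all genes. All 3 were lower in B cells than in HSPCs, and the stem and progenitor markers summed to 34.2 and 31.6 CPM in mutant and 46.0 and 46.8 CPM in WT B cells. The part of such cells in the difference was not tested. The other 2 genes were Bcl11a (0.33 ± 0.13 SE) and Id2 (-0.39 ± 0.16 SE). The genotype difference in B cells less that in HSPCs passed for none of the 30 (0.0158% of all genes passed), and DESeq2 called none of them (0.754% of all genes); 5 had an unadjusted p under 0.05 (7.21% of all genes), led by Il7r (-0.79 ± 0.25 SE, adjusted p = 0.583) and Flt3 (-0.92 ± 0.31 SE, adjusted p = 0.602). The others were Dntt (-1.71 ± 0.66 SE), Id2 (-0.51 ± 0.22 SE) and Id3 (-0.86 ± 0.39 SE). Without mutant 2-week HSPC replicate 2, which left 1 mutant HSPC library of that time, the Il7r value was -1.06.

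In the libraries labelled T cells no gene of the list passed either (0.00526% of all genes did), and 7 had an unadjusted p under 0.05, against 4.85% of all genes. Ccr9 had 0.689 and 0.680 CPM in mutant and 2.05 and 3.72 CPM in WT libraries labelled T cells, without overlap (log2 change -1.95 ± 0.36 SE, adjusted p = 0.259), and was called by DESeq2 (adjusted p = 0.00197; 0.123% of all genes). Lower mutant libraries without overlap were found for 12.9% of all genes there, on scaled levels. Dntt (-1.60 ± 0.52 SE), Tcf7 (-1.54 ± 0.57 SE) and Cd27 (-1.46 ± 0.52 SE) had low levels in these libraries and log2 changes below -1, and Il7r had -0.46 ± 0.18 SE. The T cell markers summed to 13.6 and 15.6 CPM in mutant and 21.1 and 21.8 CPM in WT libraries labelled T cells. The B cell markers summed to 516 and 474 CPM in mutant and 538 and 739 CPM in WT libraries there. The part of such cells in these differences was not tested.

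**Figure D5:**
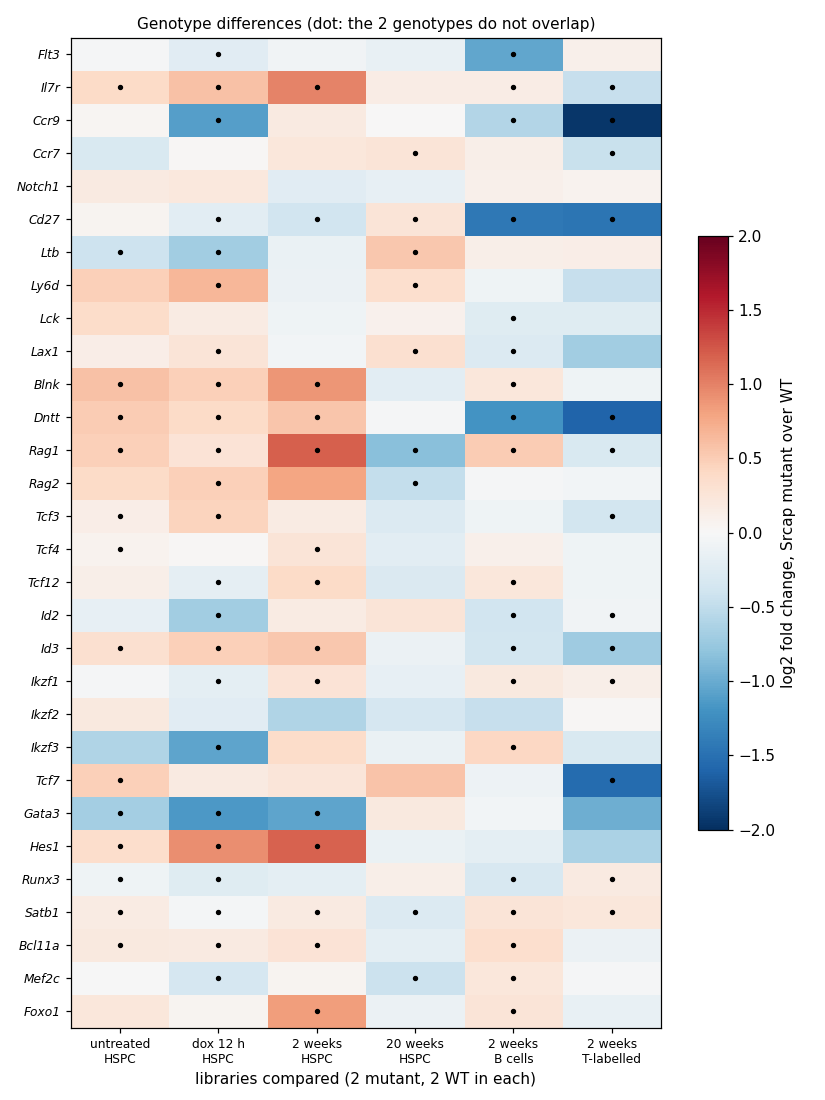
Log2 fold change of Srcap mutant over WT for the 30 genes (rows) in 4 HSPC conditions, B cells and libraries labelled T cells (columns), red for higher and blue for lower in mutants, with a dot where the 2 libraries of each genotype did not overlap after scaling for composition. Gata3 was below 0 in 3 of 4 HSPC conditions, Il7r was above 0 in all 4, and none of the values had an adjusted p under 0.05.

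Genes that work with the list were read beside it. Of all genes, 21.2% rose and 24.9% fell at 2 weeks, and 13.1% rose and 10.6% fell at 20 weeks. Between B cells and 2-week HSPCs, 28.3% of all genes were higher and 25.5% lower in B cells. At 2 weeks against untreated HSPCs, 1 of 15 other lymphoid progenitor genes rose and 10 fell. Sox4, a factor of early B progenitors, had 99.8 to 119 CPM at 2 weeks, against 376 to 409 CPM untreated (log2 change -1.73 ± 0.11 SE, adjusted p = 1.96e-09), and Btla, an inhibitory lymphocyte receptor, changed by -2.68 ± 0.16 SE. Of 14 partners of FLT3 and IL7 receptor signalling, 4 rose and 6 fell. The kinase-regulated factor Stat5a rose (1.08 ± 0.10 SE), and its target Cish fell (-1.26 ± 0.14 SE). The 14 Notch pathway partners gave 1 that rose and 3 that fell, among them the coactivator Maml2 (-1.16 ± 0.15 SE). Of 10 partners of V(D)J joining 2 rose and 3 fell, with the ligase Lig4 at -0.97 ± 0.22 SE and its cofactor Xrcc4 at -1.13 ± 0.15 SE. At 20 weeks 3 of the 15 progenitor genes rose and 5 fell, 3 of the 14 FLT3 and IL7 partners rose and none fell, 3 of the 14 Notch partners rose and none fell, and 4 of the 10 joining partners fell and none rose. Dclre1c, the nuclease Artemis that opens hairpin ends, had 7.14 to 14.5 CPM at 20 weeks, against 27.8 to 36.5 CPM untreated (log2 change -1.28 ± 0.19 SE, adjusted p = 0.000133). In B cells against 2-week HSPCs, 7 of the 10 joining partners were higher and 2 lower. There Lig4 (3.11 ± 0.17 SE) and Dclre1c (2.51 ± 0.14 SE) differed most. Bcl2, a survival gene under IL7 control, had 13.1 to 19.8 CPM in B cells, against 92.7 to 115 CPM in 2-week HSPCs (log2 change -2.49 ± 0.13 SE, adjusted p = 1.75e-09).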

How the data were processed

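RNA was sequenced in 24 libraries, and the authors deposited raw counts per gene for each one. Per the file headers these counts came from featureCounts 2.0.1 on paired, reverse-stranded reads with GENCODE M28 genes. The sample records name the aligner STAR, without its version. Groups were taken from the sample labels. Gene symbols came from GENCODE M21 and matched 52081 of 55414 identifiers.

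The counts were tested with the robust quasi-likelihood test of edgeR 4.0.16 in R 4.3.3 (limma 3.58.1), after a filter on low counts (filterByExpr, minimum count 10 and total 15) and TMM scaling, with 1 mean per group. One fit held the 16 HSPC libraries, and another the 12 libraries of 2 weeks. Benjamini-Hochberg adjustment ran over all genes tested, and genes passed at 0.05. CPM is the count per 1000000 assigned fragments, without TMM scaling. The steps were tested on simulated data.

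The alternatives were DESeq2 1.42.0, size factors of the RLE kind, no filter on counts, a block for the replicate number, no immunoglobulin genes or Jchain, only the compared groups, and each library left out in turn. The 30 genes, the partner and marker lists and the tests were chosen with earlier results of these data known. Each comparison names the genes that passed (the 12 largest changes where more did) or, where fewer than 5 did, the 5 with the smallest p. Other genes of the list are named beside them, but only the former were followed gene by gene under the alternatives. Of other lists up to 4 are named, the largest changes that passed or the most abundant; Cd3e was chosen after its values were seen.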

Additional observations from a re-analysis of the deposited data

Results flagged for a closer look

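For some genes both mutant libraries lay on one side of both WT libraries in one set of libraries and on the opposite side in another, on levels scaled for library composition. Each value here is the log2 difference of mutant from WT in the first set less that in the second, and none of these differences was tested. In single sets, 12.7% to 24.7% of all genes did not overlap in a given direction, so such pairs of sets occur among many genes. Rag1, a recombinase subunit, was higher in mutants after doxorubicin and at 2 weeks and lower at 20 weeks, by 1.11 between doxorubicin and 20 weeks and by 2.03 between 2 weeks and 20 weeks. Its partner Rag2 differed by 0.96 between doxorubicin and 20 weeks. Ltb (-1.24) and Cd27 (-0.48) were lower in mutants after doxorubicin and higher at 20 weeks, and Cd27 differed by -0.65 between 2 weeks and 20 weeks. Satb1 differed by -0.22 between doxorubicin and 2 weeks and by 0.45 between 2 weeks and 20 weeks, where its mutant libraries were the higher ones at 2 weeks. In unscaled CPM its doxorubicin libraries were also the higher ones in mutants, at 301 and 302 CPM in mutant and 297 and 296 CPM in WT libraries. Ikzf1 (-0.47) and Tcf12 (-0.57) were lower in mutants after doxorubicin and higher at 2 weeks.

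Il7r (0.61) and Rag1 (0.81) were higher in mutant than in WT B cells and lower in mutant than in WT libraries labelled T cells, and Runx3 (-0.50) ran the opposite way on the scaled level. In unscaled CPM Runx3 overlapped in the libraries labelled T cells, at 15.7 and 14.5 CPM in mutant and 15.8 and 13.3 CPM in WT libraries. Between 2-week HSPCs and the libraries labelled T cells the values were 1.45 for Il7r, 2.16 for Dntt, 1.50 for Rag1 and 1.25 for Id3, each higher in mutants in HSPCs. In the libraries labelled T cells 10 neutrophil genes summed to 137277 to 157280.0 CPM.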

How the results depend on the processing

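The counts of genes that passed after transplantation and in B cells kept within 1.5 times under all alternatives: 24 to 28 of 30 at 2 weeks, 11 to 18 at 20 weeks and 24 to 25 between B cells and HSPCs. Gene by gene, 96 values were followed, those of the largest changes or smallest p in each comparison, and not every gene that passed. None of these changed sign in 1198 refits. Among them 6 refits lost a call, all for Rag1 at 20 weeks against untreated HSPCs without single libraries. Genes outside the 96 values also lost calls at 2 weeks, at 20 weeks and between B cells and HSPCs when single libraries were left out.

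The absence of calls between mutant and WT depended on the test and filter, and the cause was not tested. With no count filter edgeR called 6 genes after doxorubicin, 7 at 2 weeks, 1 at 20 weeks, 7 in the mean, 3 in B cells (1.82% of all genes) and 4 in libraries labelled T cells (0.54%). It also called 3 genes for doxorubicin against untreated HSPCs (1.43%) and, for the change of the genotype difference, 1 with doxorubicin (1.14%), 2 at 20 weeks (1.27%) and 3 in B cells against HSPCs (1.56%). DESeq2 called 1 after doxorubicin, 4 at 2 weeks, 3 in the mean, 2 in B cells and 1 in libraries labelled T cells. With only the compared groups 3 passed after doxorubicin (1.54% of all genes). Leaving out each library in turn gave 0 to 4 at 2 weeks, 0 to 2 at 20 weeks, 0 to 3 in the mean and 0 to 1 for the genotype difference in B cells less that in HSPCs; the 1 was Il7r without mutant 2-week HSPC replicate 2.

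By the numbers in the sample titles, which differ from those in some file headers, same-numbered mutant and WT libraries did not deviate together (correlations -0.04 to 0.02), and the labels name no pairs. With a replicate block added to the fit, 27 genes passed at 2 weeks, 13 at 20 weeks, 25 between B cells and HSPCs and 0 elsewhere. Depth limits genes at a few fragments, such as Gata3 in the libraries labelled T cells (0 to 6 fragments).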
